A study of Mus musculus with 12 samples.

Results

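The comparison set mouse lung cells at P3 and P7 (postnatal days 3 and 7) against the same sorted population at E17.5 (late gestation) and P10 (postnatal day 10). All 12 libraries of the series entered it, 6 of P3 and P7 and 6 of E17.5 and P10, with 3 libraries at each of 4 stages. In all 4 groups the genotype was Acta2-dsRed+, Pdgfra-GFP+, the lung was dissociated whole and dsRed+ GFP+ cells were collected by sorting, so the groups differed in the labels by stage alone. The dsRed reports Acta2, the smooth muscle actin gene, and the GFP reports Pdgfra, a platelet-derived growth factor receptor. Any lung cell with both colours is in the sort. The title of the series names Hippo pathway activity and mesenchymal differentiation as its subjects. Nothing in the labels tells whether a library was 1 animal or a pool, or that the 3 of a stage came from different animals, so the p-values measure the scatter of these libraries and that scatter may be technical.

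Alveoli form after birth in the mouse, when ridges called secondary septa grow out of the walls of the saccules and divide them. Myofibroblasts that express Acta2 and Pdgfra lie at the tips of these ridges, multiply, and lay down the elastic fibres of the wall. A gene that is high or low only at P3 and P7 shows as a peak or a dip between the outer stages, while a gene that changes once, between E17.5 and P3, shows as a step. The contrast of the mean of P3 and P7 with the mean of E17.5 and P10 is met by all of these patterns. A second test therefore asked whether P3 and P7 differed in the same direction from E17.5 and from P10 separately. It took the larger of the p-values of both differences, and the words peak and dip are used below only for genes that passed it at an adjusted p under 0.05.

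Library depth was similar, with summed estimated counts between 13328623 and 18740591 and between 20234 and 21235 genes above 0. Spearman correlations within a stage lay between 0.938 and 0.961. The 7SL and 7SK small RNA genes held 26.5% to 43.7% of the summed counts at P3 and P7, against 20% to 46.3% at E17.5 and P10, with the lowest share in P10 replicate 3 and the highest in E17.5 replicate 2. The same libraries had the highest (1.48) and the lowest (0.589) TMM scaling factor, and the part of this composition in their results was not tested. On the second principal component, which held 14.9% of the variance, P10 replicate 1 (0.161) lay apart from P10 replicate 2 (0.489) and P10 replicate 3 (0.499) and towards P7 (-0.193 to -0.0335). Both sort genes were measured in every library. Acta2 had 1020, 984 and 1080 CPM at P3 and 823, 690 and 952 at P7, against 347, 432 and 696 at E17.5 and 676, 364 and 420 at P10. Pdgfra had 207, 165 and 165 CPM at P3 and 186, 218 and 168 at P7, against 268, 409 and 361 at E17.5 and 177, 249 and 236 at P10. In a bulk sample, fewer cells of a type and less RNA per cell cannot be told apart. CPM, the count scaled to an equal library size, is given without a further adjustment for transcript length. Whether the authors' scaling of the counts had already used length is not given in the sources used here. A log2 fold change is P3 and P7 over E17.5 and P10, its error after ± is the SE, and its adjusted p comes from the quasi-likelihood test of edgeR with Benjamini-Hochberg adjustment over all tested genes.

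Of 16827 genes tested, 2242 (13.3%) were higher and 2112 (12.6%) lower at P3 and P7 than at E17.5 and P10. Against E17.5 alone 2540 (15.1%) were higher and 2648 (15.7%) lower, and against P10 alone 1279 (7.6%) and 1179 (7.01%). P10 itself exceeded E17.5 for 8.79% of genes and fell below it for 9.5%. The both-stage test left 414 peaks (2.46%) and 212 dips (1.26%). All 6 P3 and P7 libraries lay above all 6 others for 880 genes (5.23%) and below them for 557 genes (3.31%). A 2-fold contrast was reached by 221 of the 414 peaks and by 69 of the 212 dips. Members of 7 cell cycle lists made up 192 of the peaks and 0 of the dips, so 222 peaks (53.6%) lay outside those lists. Of these 222, 60 reached a 2-fold contrast. The median log2 fold change was 1.58 for cell cycle peaks, 0.76 for other peaks and -0.77 for dips. Only the cell cycle peaks were thus larger changes than the dips. The number of peaks and dips rested on single libraries. Without P10 replicate 3 there were 96 peaks and 37 dips, and without P10 replicate 2 there were 131 and 42, while without P10 replicate 1 there were 473 and 205. Leaving out P7 replicate 1, 2 or 3 gave 210 and 111, 236 and 104, and 209 and 81. Dips alone numbered 83 without P3 replicate 2, 123 without P3 replicate 1 and 110 without E17.5 replicate 2, while peaks numbered 274 without P3 replicate 2. Of the main calls, 85 peaks and 29 dips passed with each of the 12 libraries left out in turn. In the cell cycle lists were 51 of those peaks, and 34 were outside them. Some of these 34, such as Dtl and Pmf1, act in dividing cells although the lists did not hold them.

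**Figure D1:**
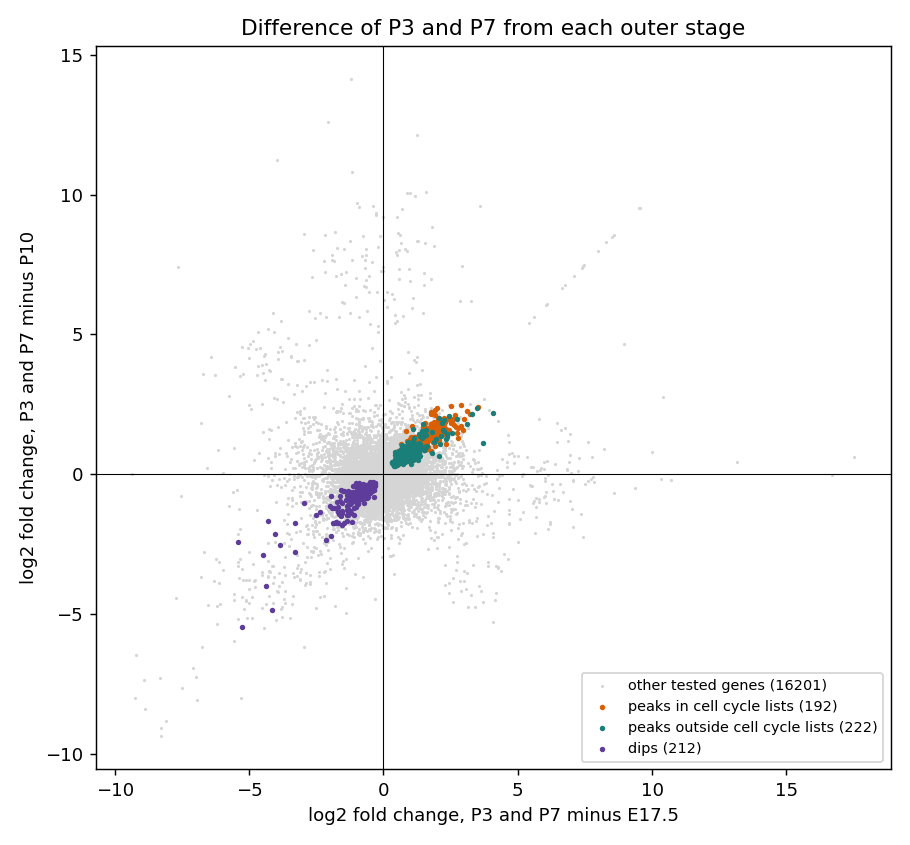
Each point is a tested gene; the horizontal axis is its log2 fold change of P3 and P7 over E17.5 and the vertical axis that over P10. The 192 cell cycle peaks and 222 other peaks lie in the upper right, the 212 dips in the lower left, and genes far along the horizontal axis near a vertical value of 0 changed between E17.5 and P3 and then differed little by P10.

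**Figure D2:**
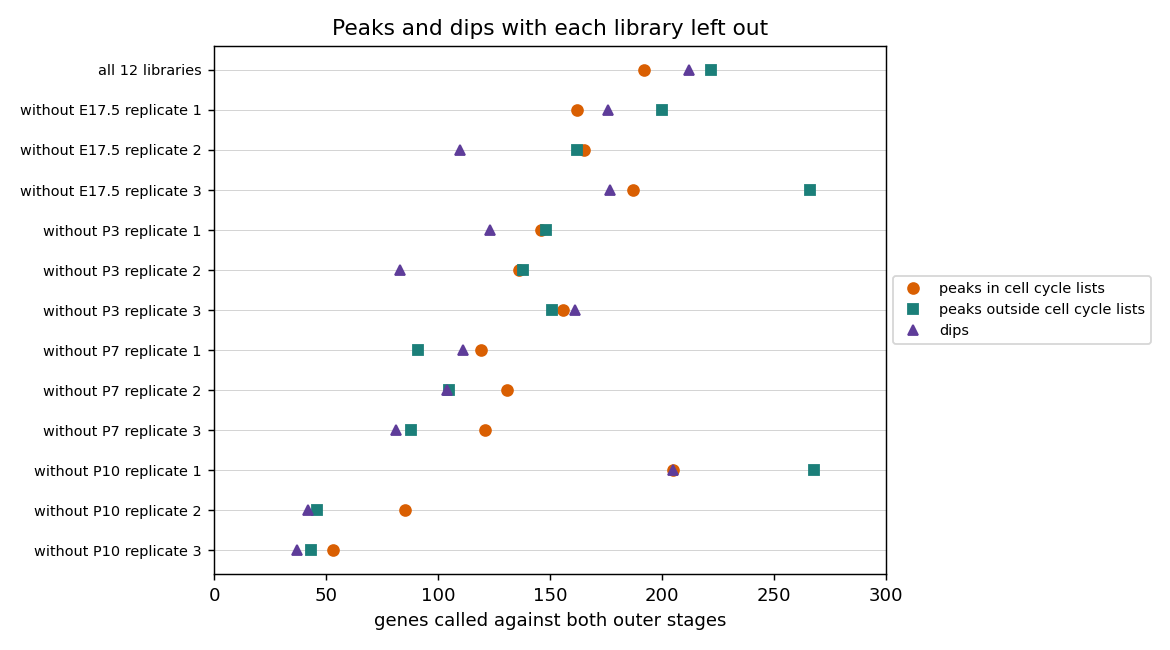
Number of genes called as peaks in the cell cycle lists, peaks outside them, and dips, with all 12 libraries and with each library left out. The counts are lowest without P10 replicate 3 (53, 43 and 37) and without P10 replicate 2 (85, 46 and 42).

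Genes of cell division formed the main block of peaks. Of 389 tested members of the cell cycle lists, 331 were higher and 9 lower, and 192 were peaks, against 13.3%, 12.6% and 2.46% of all tested genes. The median log2 fold change of the members was 1.30, against -0.03 over all tested genes. In the DNA replication list 41 of 54 members were peaks, in mitosis and cytokinesis 96 of 145, in chromatin assembly and maintenance 24 of 36, in recombination and repair 18 of 37, and in nucleotide synthesis 9 of 23. The lists were chosen with earlier results of these libraries known, so their direction is not independent evidence. With P10 replicate 3 left out 53 cell cycle members were peaks, while 300 were higher in the contrast.

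Mcm5, a subunit of the helicase that unwinds DNA at replication forks, had the highest fold of the replication list. It ranged over 17.4 to 27.6 CPM at P3 and P7, against 0.973 to 5.7 at E17.5 and P10, a log2 fold change of 2.69 ± 0.25 (adjusted p = 9.33e-05), with 3.11 over E17.5 and 2.28 over P10. Mcm3, another subunit of that helicase, had 37.6, 36.5 and 42.6 CPM at P3 and 26.4, 27 and 28.7 at P7, against 9.65, 5.84 and 9.39 at E17.5 and 11.6, 7.83 and 9.46 at P10. Every P3 and P7 library was above every other library, and the log2 fold change was 1.86 ± 0.13 (adjusted p = 3.66e-05). Rrm1, the large subunit of ribonucleotide reductase, which makes the building blocks of DNA, had 28.7, 31.1 and 35.8 CPM at P3 and 24.2, 25.3 and 25.9 at P7, against 11.1, 9.93 and 10.1 at E17.5 and 14.1, 8.28 and 12.2 at P10. Its log2 fold change was 1.37 ± 0.12 (adjusted p = 6.77e-05), again with no overlap. Dnmt1, which copies DNA methylation onto new strands, ranged over 35 to 40.8 CPM at P3 and P7, against 13.8 to 18.6 at E17.5 and P10, a log2 fold change of 1.19 ± 0.07 (adjusted p = 1.78e-05). The calls of Mcm5, Mcm3, Rrm1 and Dnmt1 against both outer stages held with each library left out.

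Mitotic genes followed. Cenpn, a centromere protein that helps to seat the kinetochore, had 4.71, 5.18 and 5 CPM at P3 and 4.98, 5.01 and 4.1 at P7, against 1.29, 1.17 and 1.77 at E17.5 and 1.54, 1.29 and 1.32 at P10. The groups did not overlap, and the log2 fold change of 1.78 ± 0.14 (adjusted p = 5.12e-05) came almost equally from the fold over E17.5 (1.76) and that over P10 (1.80). Aurkb, the kinase of the chromosomal passenger complex, ranged over 12.6 to 17.7 CPM at P3 and P7, against 1.36 to 4.45 at E17.5 and P10, a log2 fold change of 2.22 ± 0.19 (adjusted p = 6.6e-05). Mki67, the gene of the Ki-67 proliferation marker, ranged over 82.4 to 90.9 CPM at P3 and P7, against 16.7 to 47.4 at E17.5 and P10, a log2 fold change of 1.62 ± 0.16 (adjusted p = 0.000104); its call against both outer stages ended without P10 replicate 3 (adjusted p = 0.0604).

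The promoters of cell cycle peaks were searched for short motifs because the members moved together. RefSeq gave a promoter, from 250 bases before to 50 bases after the start on GRCm38.p6, for 156 of the 192 (81.2%). The letters CCAAT, the box bound by NF-Y, stood on either strand in 97 of the 156 (62.2%), against 37.9% of all 27025 promoters given by RefSeq. TTTGAA or TTCGAA, the cell cycle homology region, stood in 72 (46.2%), against 19.4%. GCGGGAA, an E2F site, stood in 36 (23.1%), against 4.66%, and GGAATG, the site of the TEAD partners of YAP, in 16 (10.3%), against 14.6%. The 27025 promoters include those of genes not tested here, so the shares beside them are not those of genes expressed in these cells. A match is a description of the letters, not a shown binding site. The median share of G and C was 59.7% in promoters of cell cycle peaks and 52.7% in all; its part in these shares was not tested. A set was read only where at least 80% of its genes had a promoter. Peaks outside the lists (77.9%), dips (70.8%) and all tested genes (63.8%) fell short, and the check is void for them.

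Promoters are shown for 2 cell cycle peaks, Cenpn at chr8:116921490-116921789 (plus strand) and Rrm1 at chr7:102441445-102441744 (plus strand), and for 3 named genes outside the cell cycle lists, the peaks Zfp367 at chr13:64153150-64153449 (minus strand) and Thsd4 at chr9:60510986-60511285 (minus strand) and the dip Klf9 at chr19:23140976-23141275 (plus strand). They are RefSeq sequences of GRCm38.p6, written 5′ to 3′ on the strand of the gene, and capitals mark every match on either strand to the motifs just named (in Klf9 the CCAAT matches of the 2 strands overlap). For Zfp367 and Thsd4 the table lists 2 starts, and the promoter of the first of them is printed.
Cenpn: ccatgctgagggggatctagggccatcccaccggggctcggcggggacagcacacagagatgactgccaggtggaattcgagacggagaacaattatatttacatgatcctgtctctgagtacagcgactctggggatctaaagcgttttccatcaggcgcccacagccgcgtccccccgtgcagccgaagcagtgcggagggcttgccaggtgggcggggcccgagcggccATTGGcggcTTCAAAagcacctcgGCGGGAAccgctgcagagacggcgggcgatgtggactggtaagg
Rrm1: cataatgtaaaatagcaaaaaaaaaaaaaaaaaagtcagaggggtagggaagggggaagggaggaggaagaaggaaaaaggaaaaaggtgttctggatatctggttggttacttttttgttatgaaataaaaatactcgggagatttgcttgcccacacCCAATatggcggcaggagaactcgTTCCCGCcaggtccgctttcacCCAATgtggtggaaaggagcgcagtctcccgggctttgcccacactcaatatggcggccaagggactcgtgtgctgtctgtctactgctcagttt
Zfp367: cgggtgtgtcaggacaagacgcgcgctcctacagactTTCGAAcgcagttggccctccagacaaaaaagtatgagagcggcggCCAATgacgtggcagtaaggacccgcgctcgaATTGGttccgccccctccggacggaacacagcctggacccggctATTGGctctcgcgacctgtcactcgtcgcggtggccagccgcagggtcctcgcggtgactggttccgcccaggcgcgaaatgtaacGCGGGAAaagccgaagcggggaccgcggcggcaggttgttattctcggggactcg
Thsd4: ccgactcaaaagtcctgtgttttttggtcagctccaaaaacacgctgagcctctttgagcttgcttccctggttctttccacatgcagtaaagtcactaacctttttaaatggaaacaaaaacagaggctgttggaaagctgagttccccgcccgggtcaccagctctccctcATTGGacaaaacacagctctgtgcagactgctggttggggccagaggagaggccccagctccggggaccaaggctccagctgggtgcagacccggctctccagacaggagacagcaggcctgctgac
Klf9: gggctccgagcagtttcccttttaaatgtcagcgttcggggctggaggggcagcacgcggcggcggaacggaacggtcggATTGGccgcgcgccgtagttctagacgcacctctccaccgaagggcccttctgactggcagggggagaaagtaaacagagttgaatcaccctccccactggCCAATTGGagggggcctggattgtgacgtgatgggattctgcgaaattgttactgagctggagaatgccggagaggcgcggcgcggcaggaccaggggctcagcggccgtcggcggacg

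Regulators of entry into the cycle divided into peaks and steps. Of 35 tested members of the G1 and E2F list 20 were higher, 7 lower and 6 were peaks, against 13.3%, 12.6% and 2.46% of all tested genes. E2f1, an activator of S phase genes, averaged 5.81 CPM at P3 and 4.68 at P7, against 1.17 at E17.5 and 1.64 at P10, a log2 fold change of 1.89 ± 0.23 (adjusted p = 0.000337), and was a peak (adjusted p = 0.0136 against both outer stages). Cdk4, the kinase partner of D cyclins, averaged 108 CPM at P3 and 90.3 at P7, against 52.1 at E17.5 and 53.6 at P10, a log2 fold change of 0.90 ± 0.12 (adjusted p = 0.000534), and was also a peak. Both peak calls ended without P10 replicate 2 or P10 replicate 3 (highest adjusted p = 0.0787 and 0.0829). Its partner Ccnd1 (cyclin D1) was not. Ccnd1 had 19.4, 26.9 and 27.3 CPM at P3 and 23.6, 26.7 and 31.8 at P7, against 2.11, 1.36 and 1.93 at E17.5 and 22.4, 30 and 28.4 at P10. It was low at E17.5 and then overlapped between P3, P7 and P10, so that the contrast passed (1.88 ± 0.14, adjusted p = 4.02e-05) although the log2 fold change over P10 was -0.06. Ccnd2 (cyclin D2) likewise had a log2 fold change of 2.09 over E17.5 and -0.09 over P10. Among the 7 lower members were Cdkn1b, Cdkn1c and Cdkn1a, which encode inhibitors of cyclin-dependent kinases, with log2 fold changes of -0.40, -0.26 and -0.88; they were no dips.

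Replication-dependent histone genes were higher in 44 of 61 tested members and lower in 1, against 13.3% and 12.6% of all tested genes. Their median log2 fold change was 1.56, but none was a peak by the both-stage test. Hist1h4d had 483, 395 and 662 CPM at P3 and 421, 355 and 464 at P7, against 169, 269 and 189 at E17.5 and 246, 74.9 and 96.8 at P10. All P3 and P7 libraries were above the rest, yet the spread within stages was wide and the adjusted p against both outer stages was 0.13. These genes are near-identical copies whose reads the authors' counting could split, and most of their transcripts lack a poly(A) tail, so single members are uncertain.

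Outside the cell cycle lists, Thsd4 (chromosome 9, 59966931 to 60522046, minus strand) was highest among peaks of at least 10 CPM whose groups did not overlap. It encodes ADAMTSL6, a matrix protein that binds fibrillin microfibrils. Thsd4 had 27.8, 22.3 and 24.7 CPM at P3 and 26.1, 19.8 and 20.9 at P7, against 1.7, 0.487 and 1.77 at E17.5 and 7.12, 4.33 and 3.91 at P10. The 6 P3 and P7 libraries lay close together and above the other 6. The log2 fold change was 3.15 ± 0.25 (adjusted p = 4.71e-05), with 4.09 over E17.5 and 2.20 over P10, and its call held with each library left out. Adamtsl2, a relative of Thsd4 that also binds microfibrils, did the opposite. It had 8.59, 7.18 and 4.86 CPM at P3 and 5.58, 8.96 and 6.31 at P7, against 136, 151 and 120 at E17.5 and 10.8, 27.1 and 27.8 at P10, all P3 and P7 libraries below the rest, and a log2 fold change of -2.98 ± 0.25 (adjusted p = 6.77e-05). It was a dip (adjusted p = 0.0125), a call that ended without P10 replicate 2 or P10 replicate 3 (highest adjusted p = 0.0724).

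Slfn9, a Schlafen family gene, had 12.4, 13.2 and 11.2 CPM at P3 and 12.2, 14.4 and 13.8 at P7, against 1.7, 0.389 and 1.72 at E17.5 and 3.38, 2.26 and 3.05 at P10. The groups were far apart, with a log2 fold change of 2.71 ± 0.25 (adjusted p = 9.33e-05), and the call against both outer stages held with each library left out. Etv4, a transcription factor induced by fibroblast growth factor signalling, had 45.1, 50.9 and 64.6 CPM at P3 and 47.8, 45.4 and 55.1 at P7, against 4.35, 1.85 and 5.32 at E17.5 and 22.2, 21.1 and 28.4 at P10. P10 lay between E17.5 and the middle stages, the log2 fold change was 2.41 ± 0.21 (adjusted p = 6.41e-05), and the peak call (adjusted p = 0.0355) ended when any 1 of 10 libraries was left out (highest adjusted p = 0.173). Its relative Etv5 was level from P3 to P10, with log2 fold changes of 1.62 over E17.5 and -0.02 over P10.

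Col2a1, the collagen of cartilage, had 17.1, 16.3 and 13.2 CPM at P3 and 17.8, 7.94 and 10.3 at P7, against 2.92, 3.11 and 3.7 at E17.5 and 5.34, 3.17 and 1.68 at P10. The libraries did not overlap and the log2 fold change was 2.04 ± 0.28 (adjusted p = 0.000651); the peak call ended without E17.5 replicate 2, P10 replicate 2 or P10 replicate 3 (highest adjusted p = 0.0836). Psat1, an enzyme of serine synthesis, had 14.9, 15.3 and 18.1 CPM at P3 and 11.6, 8.11 and 14.5 at P7, against 3.81, 1.56 and 3.55 at E17.5 and 4.99, 2.98 and 3.36 at P10. It was higher at P3 and P7 in every library, a log2 fold change of 2.0 ± 0.23 (adjusted p = 0.000263), and its peak call ended without P10 replicate 2 or P10 replicate 3 (highest adjusted p = 0.0676). Sema3a, a secreted guidance cue that repels axons, ranged over 11.3 to 16.4 CPM at P3 and P7, against 3.7 to 8.09 at E17.5 and P10, a log2 fold change of 1.22 ± 0.20 (adjusted p = 0.00164); this call ended when any 1 of 11 libraries was left out (highest adjusted p = 0.192). Piezo1, a channel opened by membrane stretch, ranged over 12.4 to 18 CPM at P3 and P7, against 6.33 to 10.2 at E17.5 and P10, a log2 fold change of 0.79 ± 0.10 (adjusted p = 4e-04), and lost its peak call without P7 replicate 1, P10 replicate 2 or P10 replicate 3 (highest adjusted p = 0.114).

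Several of the leading peaks act in dividing cells although none of the cell cycle lists, as written, held them. Zfp367, a zinc finger transcription factor, had 25, 27.5 and 36.5 CPM at P3 and 23.5, 26.9 and 26 at P7, against 6.18, 6.81 and 6 at E17.5 and 13.7, 12.2 and 12.7 at P10. Dtl, a substrate receptor of the ubiquitin ligase that removes the licensing factor Cdt1, had 10.5, 11.2 and 13.7 CPM at P3 and 10.9, 12.7 and 12.1 at P7, against 4.42, 3.11 and 4.22 at E17.5 and 4.75, 3.43 and 5.08 at P10. Both were higher in all 6 P3 and P7 libraries, with log2 fold changes of 1.61 ± 0.10 (adjusted p = 2.77e-05) and 1.5 ± 0.13 (adjusted p = 7.23e-05), and held with each library left out. Diap3, the older symbol of the formin Diaph3, had a log2 fold change of 1.90, Tcf19 1.43, and Pmf1, a subunit of the Mis12 kinetochore complex, 1.36. Among the other genes of the highest 14 were Dctpp1, a nucleotide pyrophosphatase (1.37), Nme1, a nucleoside diphosphate kinase (1.31), Blvra, biliverdin reductase (1.36), and Smyd2, a lysine methyltransferase (1.28). Of these 7, Pmf1 held with each library left out; Tcf19 and Nme1 lost the peak call without P10 replicate 2 or P10 replicate 3, and Diap3, Dctpp1, Smyd2 and Blvra when any 1 of 3, 4, 4 and 8 libraries was left out (highest adjusted p = 0.115, 0.0669, 0.122 and 0.176). Among 27 genes of apoptosis 7 were higher and 6 lower, against 13.3% and 12.6% of all tested genes. Casp8, an initiator caspase, was a peak with a log2 fold change of 0.78 ± 0.12 (adjusted p = 0.0013); its call ended when any 1 of 9 libraries was left out (highest adjusted p = 0.151).

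**Figure D3:**
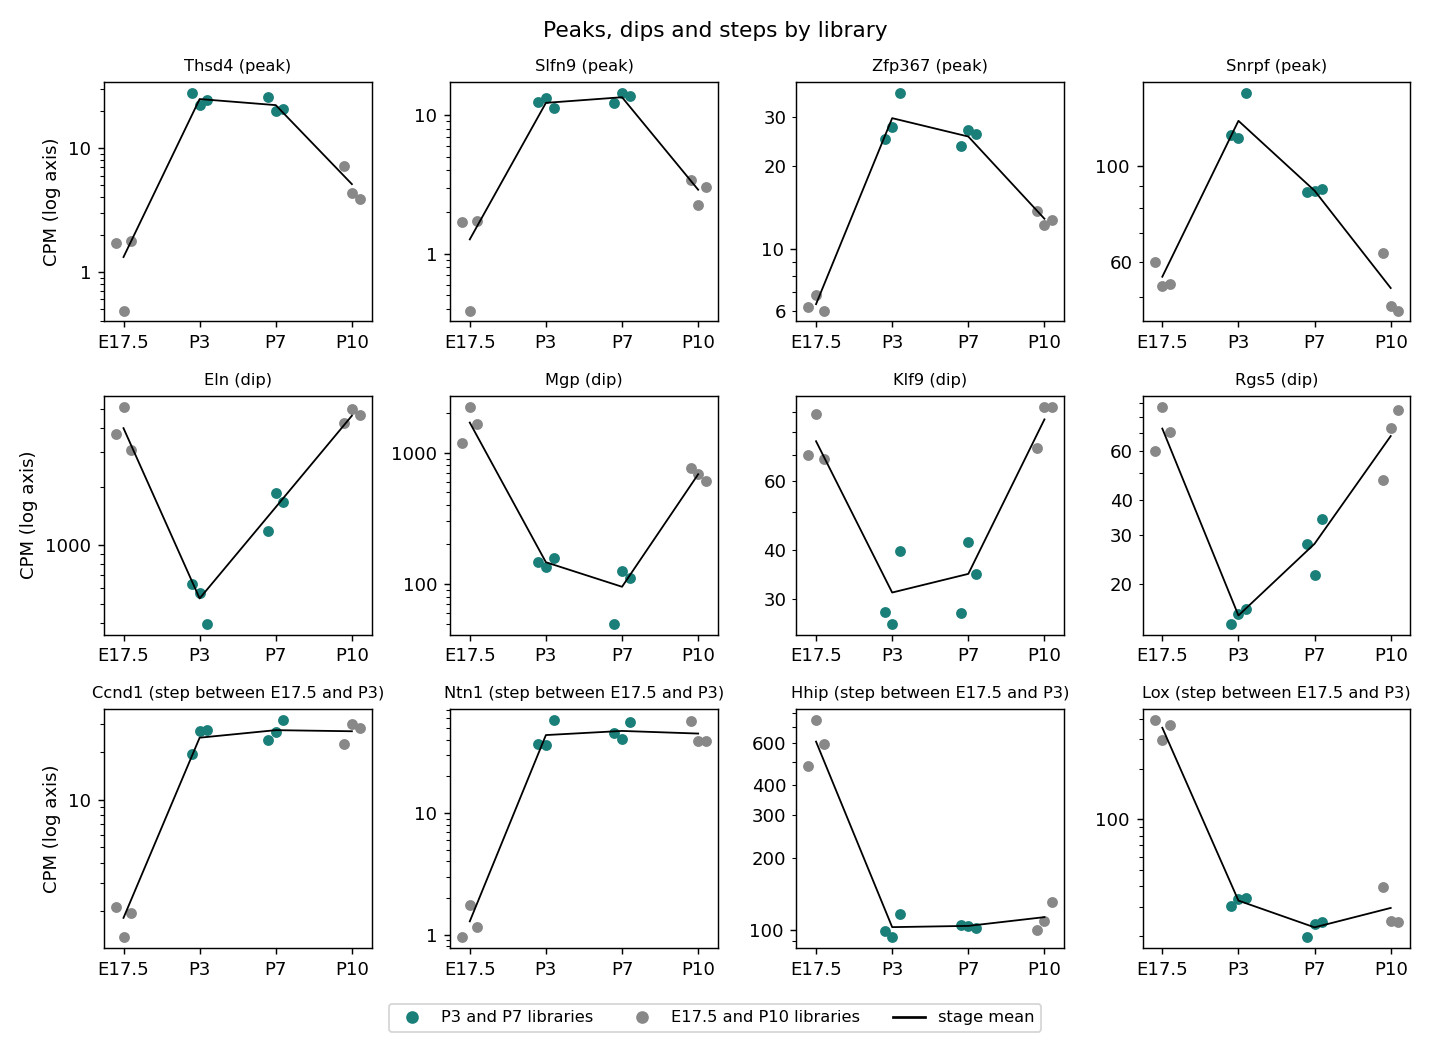
CPM on a log axis in each library at E17.5, P3, P7 and P10 for 4 peaks (top), 4 dips (middle) and 4 genes that changed between E17.5 and P3 only (bottom); points are libraries and lines join stage means. Thsd4 lies at 19.8 to 27.8 CPM at P3 and P7 and at 0.487 to 7.12 CPM at the outer stages, and Eln at 394 to 1860 CPM at P3 and P7 and at 3080 to 5170 CPM at the outer stages.

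Genes for making ribosomes and mitochondria were higher in the contrast of P3 and P7 by small amounts. Ribosome biogenesis genes were highest at P3 rather than P7: the stage mean was highest at P3 for 41 of 45 members and at P7 for 3. In the ribosome biogenesis list 31 of 45 members were higher, none lower and 8 were peaks, with a median log2 fold change of 0.46. In mitochondrial import and translation 32 of 53 were higher, none lower and 3 were peaks (median 0.37), and in nuclear-encoded oxidative phosphorylation 46 of 76 were higher, 1 lower and 7 were peaks (median 0.34). The shares among all tested genes were 13.3% higher and 12.6% lower. Cytosolic ribosomal protein genes differed from these lists in their course: 13 of 80 were higher and none was a peak, and their median log2 fold change was -0.10 over E17.5 and 0.49 over P10. Sterol and fatty acid synthesis had 12 of 33 members higher, 1 lower and none as a peak.

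Nhp2, a core protein of the small nucleolar RNPs that modify ribosomal RNA, had 25.1, 29.3 and 30.2 CPM at P3 and 19.3, 14.9 and 18.2 at P7, against 9.58, 8.08 and 8.55 at E17.5 and 10.7, 12.5 and 12.5 at P10. All libraries at P3 and P7 were above the rest, P3 most of all, and the log2 fold change was 1.12 ± 0.09 (adjusted p = 5.19e-05). Ndufb7, a subunit of respiratory complex I, had 104, 94.7 and 91.3 CPM at P3 and 81.5, 75.5 and 84.5 at P7, against 48.7, 41.7 and 49.1 at E17.5 and 58.9, 56.8 and 53.1 at P10, again without overlap and with a log2 fold change of 0.79 ± 0.07 (adjusted p = 6.28e-05). Both calls held with each library left out. Ncl (nucleolin) ranged over 310 to 440 CPM at P3 and P7, against 228 to 269 at E17.5 and P10, a log2 fold change of 0.49 (adjusted p = 0.0316 against both outer stages), and Srm, which makes the polyamine spermidine, over 13.6 to 22.3 CPM at P3 and P7, against 5.26 to 11.2 at E17.5 and P10, a log2 fold change of 0.99 (adjusted p = 0.0212). The calls of Ncl and Srm ended without any 1 of the P7 libraries, P10 replicate 2 or P10 replicate 3 (highest adjusted p = 0.167 and 0.12).

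The peaks of highest CPM outside the cell cycle lists, a ranking made without a further adjustment for length, had small folds. Ptma (prothymosin alpha) averaged 1830 ± 282 CPM at P3 and 1630 ± 17.9 at P7, against 1060 ± 54.6 at E17.5 and 1210 ± 140 at P10 (SD, n = 3 each). Its log2 fold change was 0.61. Ppia (cyclophilin A, a protein-folding enzyme) had 0.84, Mdk (midkine, a secreted growth factor) 0.82, and the RNA-binding proteins Hnrnpa1, Hnrnpab and Hnrnpd had 0.58, 0.57 and 0.62. Rbm3, an RNA-binding protein induced by mild cold, had 0.91 and ranged over 215 to 395 CPM at P3 and P7, against 131 to 192 at E17.5 and P10. Cirbp, another RNA-binding protein induced by mild cold, had 0.76. It was not in this ranking and was picked after its values were seen. The peak calls of Rbm3 and Cirbp ended without P10 replicate 3 only (adjusted p = 0.0566 and 0.0899). All 8 genes except Hnrnpab were free of overlap between the groups, and the peak calls of Ptma, Ppia, Mdk, Hnrnpa1, Hnrnpab and Hnrnpd ended when any 1 of 7, 2, 3, 11, 9 and 2 libraries was left out, P10 replicates 2 and 3 among them for each (their highest adjusted p over the left-out libraries lay between 0.0953 and 0.193).

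Families picked after their values were seen are given as a description. Among Sm and LSm proteins, the rings around spliceosomal RNAs, 18 of 25 were higher and 9 were peaks; Snrpf had 118, 116 and 147 CPM at P3 and 87, 87.5 and 88.7 at P7, against 60.3, 53.1 and 53.5 at E17.5 and 63.1, 47.6 and 46.5 at P10. Its 6 P3 and P7 libraries were above the rest, with a log2 fold change of 0.97 ± 0.10 (adjusted p = 0.000118), and Lsm4 had 1.22. Proteasome subunits were higher in 30 of 36 with 6 peaks, chaperonin subunits in 6 of 7 with 3 peaks, exosome subunits in 5 of 9 with 2 peaks, and nuclear pore proteins in 8 of 19 with 2 peaks. Eif3 subunits were higher in 5 of 12 with no peak, and vacuolar ATPase subunits in 0 of 17, with 3 lower and 1 dip. The shares over all tested genes were 13.3% higher and 2.46% peaks. Ranbp1, a regulator of the Ran transport GTPase that was likewise singled out after its values were seen, averaged 128 CPM at P3 and 90.8 at P7, against 37.1 at E17.5 and 56.5 at P10, a log2 fold change of 1.24. Snrpf, Lsm4 and Ranbp1 held with each library left out.

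**Figure D4:**
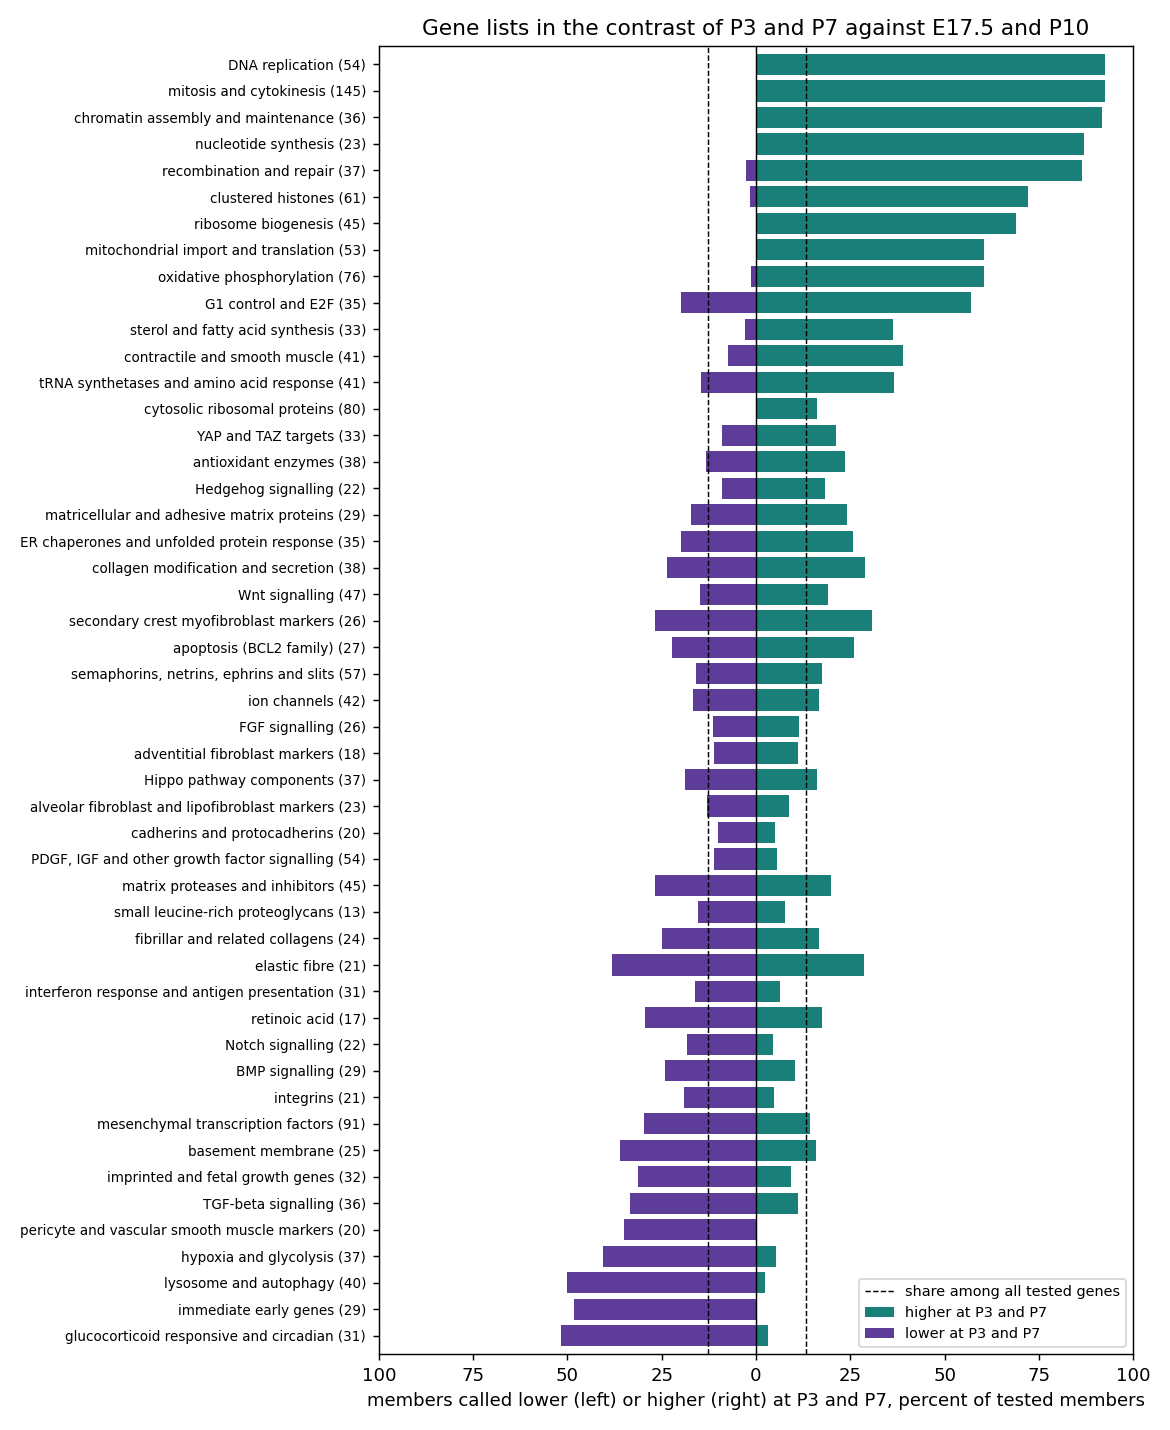
Percent of the tested members of each of 49 gene lists called lower (left bars) or higher (right bars) at P3 and P7 than at E17.5 and P10, with the number tested in brackets; dashed lines give the shares of all tested genes, 12.6% lower and 13.3% higher. Cell cycle, ribosome biogenesis and mitochondrial lists lie at the top, and glucocorticoid responsive and circadian, immediate early, and lysosome and autophagy lists at the bottom.

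Eln and Mgp, which encode matrix proteins, were among the deepest dips. Eln (chromosome 5, 134702593 to 134747323, minus strand) encodes tropoelastin, the core of the elastic fibre. Eln had 634, 570 and 394 CPM at P3 and 1190, 1860 and 1660 at P7, against 3750, 5170 and 3080 at E17.5 and 4240, 5020 and 4650 at P10. All 6 P3 and P7 libraries lay below the rest, with P3 lowest, and the log2 fold change was -2.24 ± 0.18 (adjusted p = 4.71e-05), close to the same over E17.5 (-2.13) and over P10 (-2.34). Mgp (chromosome 6, 136872435 to 136875823, minus strand), the matrix Gla protein that inhibits calcification, had 147, 134 and 158 CPM at P3 and 49.7, 125 and 111 at P7, against 1180, 2240 and 1650 at E17.5 and 761, 686 and 604 at P10. P3 and P7 were again below every other library, with a log2 fold change of -3.19 ± 0.24 (adjusted p = 4.02e-05). The calls of Eln and Mgp held with each library left out.

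The elastic fibre list held no other dip. Of its 21 tested members 6 were higher and 8 lower, against 13.3% and 12.6% of all tested genes. Lox, the crosslinking lysyl oxidase, had 30.6, 33.6 and 34 CPM at P3 and 19.8, 23.9 and 24.3 at P7, against 393, 298 and 366 at E17.5 and 39.5, 24.8 and 24.5 at P10, so that it was high at E17.5 only and its log2 fold change over P10 was -0.12. Loxl2, another lysyl oxidase, went the other way, with 2.0 over E17.5 and 0.18 over P10. Basement membrane genes had 4 members higher, 9 lower and 2 dips of 25, while 1.26% of all tested genes were dips. The dips were Lama4, a laminin chain, which had 96.4, 93.5 and 90.9 CPM at P3 and 104, 121 and 100 at P7, against 240, 261 and 228 at E17.5 and 144, 170 and 170 at P10, and Ntn4, a netrin of basement membranes, which averaged 8.95 CPM at P3 and 13.8 at P7, against 21.7 at E17.5 and 22.4 at P10. Lama4 did not overlap, had a log2 fold change of -0.98 ± 0.07 (adjusted p = 4.02e-05) and held with each library left out. Ntn4 had -0.98 ± 0.18 (adjusted p = 0.00348), and its dip ended when any 1 of 9 libraries was left out (highest adjusted p = 0.15). Among other matrix genes, the protease gene Adamts1 ranged over 134 to 205 CPM at P3 and P7, against 259 to 772 at E17.5 and P10 (log2 fold change -1.57 ± 0.18, adjusted p = 0.000244), the hyaluronan synthase gene Has1 over 8.57 to 14.5 CPM at P3 and P7, against 16.4 to 27.6 at E17.5 and P10 (-0.94), and Abi3bp, a matrix protein gene, over 8.72 to 11.9 CPM at P3 and P7, against 17.1 to 50.9 at E17.5 and P10 (-1.57). The calls of these 3 against both outer stages ended without P10 replicate 2 or P10 replicate 3, and that of Has1 also without P3 replicate 2 or P7 replicate 3 (highest adjusted p = 0.0714, 0.107 and 0.0905).

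Genes that glucocorticoid hormones induce and clock genes formed 1 list. Of its 31 tested members 16 were lower at P3 and P7, against 12.6% of all tested genes, 1 was higher (the clock gene Bhlhe41, 2.40) and 5 were dips, with a median log2 fold change of -0.58. Klf9 (chromosome 19, 23141226 to 23168134, plus strand), a transcription factor induced by the hormone, had 27.9, 26 and 39.8 CPM at P3 and 27.7, 41.9 and 34.9 at P7, against 69.9, 88.9 and 68.2 at E17.5 and 72.7, 92.7 and 92.5 at P10. E17.5 and P10 overlapped and lay above all P3 and P7 libraries, the log2 fold change was -1.29 ± 0.14 (adjusted p = 0.000216), and 98.2% of the variation between its stage means lay in this contrast. Nr3c1, the glucocorticoid receptor itself, had 63.8, 56.5 and 52.8 CPM at P3 and 61.7, 67.6 and 64.3 at P7, against 115, 117 and 142 at E17.5 and 73.3, 84.5 and 86.7 at P10, a smaller dip with a log2 fold change of -0.72 ± 0.08 (adjusted p = 0.000216) and no overlap. Cebpd, a transcription factor, ranged over 86.5 to 216 CPM at P3 and P7, against 337 to 668 at E17.5 and P10 (-1.44 ± 0.21, adjusted p = 0.000853), Bhlhe40 averaged 29.6 CPM at P3 and 26.5 at P7, against 85.8 at E17.5 and 54.5 at P10 (-1.29 ± 0.18, adjusted p = 0.000664), and the metallothionein gene Mt1 ranged over 3.05 to 10.6 CPM at P3 and P7, against 12.2 to 87.1 at E17.5 and P10 (-2.51 ± 0.33, adjusted p = 0.000674). Klf9 held with each library left out, while Nr3c1, Cebpd, Bhlhe40 and Mt1 lost the both-stage call when any 1 of 8, 8, 8 and 9 libraries was left out (highest adjusted p = 0.174, 0.113, 0.164 and 0.167).

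Some members of that list had their highest stage mean at E17.5. Zbtb16 had 3.07, 0.854 and 1.62 CPM at P3 and 0.199, 0.225 and 0.158 at P7, against 60.2, 62.3 and 52.6 at E17.5 and 0.297, 0.582 and 0.661 at P10. Its log2 fold change of -3.19 in the contrast was made of -6.58 over E17.5 and 0.21 over P10. Fkbp5, another hormone-induced gene, had log2 fold changes of -3.0 over E17.5 and 1.65 over P10, so it was lower still at P10. Tsc22d3, another target of the hormone, ranged over 19.9 to 33.6 CPM at P3 and P7, against 23.5 to 101 at E17.5 and P10, and the clock gene Per1 over 41.2 to 77.3 CPM at P3 and P7, against 63.8 to 131 at E17.5 and P10. Both passed the contrast (-1.46 and -1.0) and not the test against both stages (adjusted p = 0.0787 and 0.0672).

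Immediate early genes respond within minutes to stimuli that include the handling of cells. They were lower in 14 of 29 members and higher in none, against 12.6% and 13.3% of all tested genes. There were 2 dips, Klf4 and Fosl2 (1.26% of all tested genes), and the median log2 fold change of the list was -0.54. Fosl2 had 110, 118 and 126 CPM at P3 and 95, 80.5 and 72.4 at P7, against 218, 233 and 142 at E17.5 and 163, 177 and 160 at P10. The groups did not overlap and the log2 fold change was -0.88 ± 0.12 (adjusted p = 0.000705). Klf4 ranged over 37 to 115 CPM at P3 and P7, against 81.9 to 157 at E17.5 and P10, with overlap, and its log2 fold change was -1.03 ± 0.15 (adjusted p = 0.00105). Their both-stage calls ended when any 1 of 5 and of 7 libraries was left out (highest adjusted p = 0.102 and 0.133). Fos itself had 1600, 1340 and 754 CPM at P3 and 1540, 842 and 1030 at P7, against 1870, 1120 and 1480 at E17.5 and 763, 1720 and 1900 at P10, which overlapped, with a log2 fold change of -0.32 ± 0.27 (adjusted p = 0.428).

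**Figure D5:**
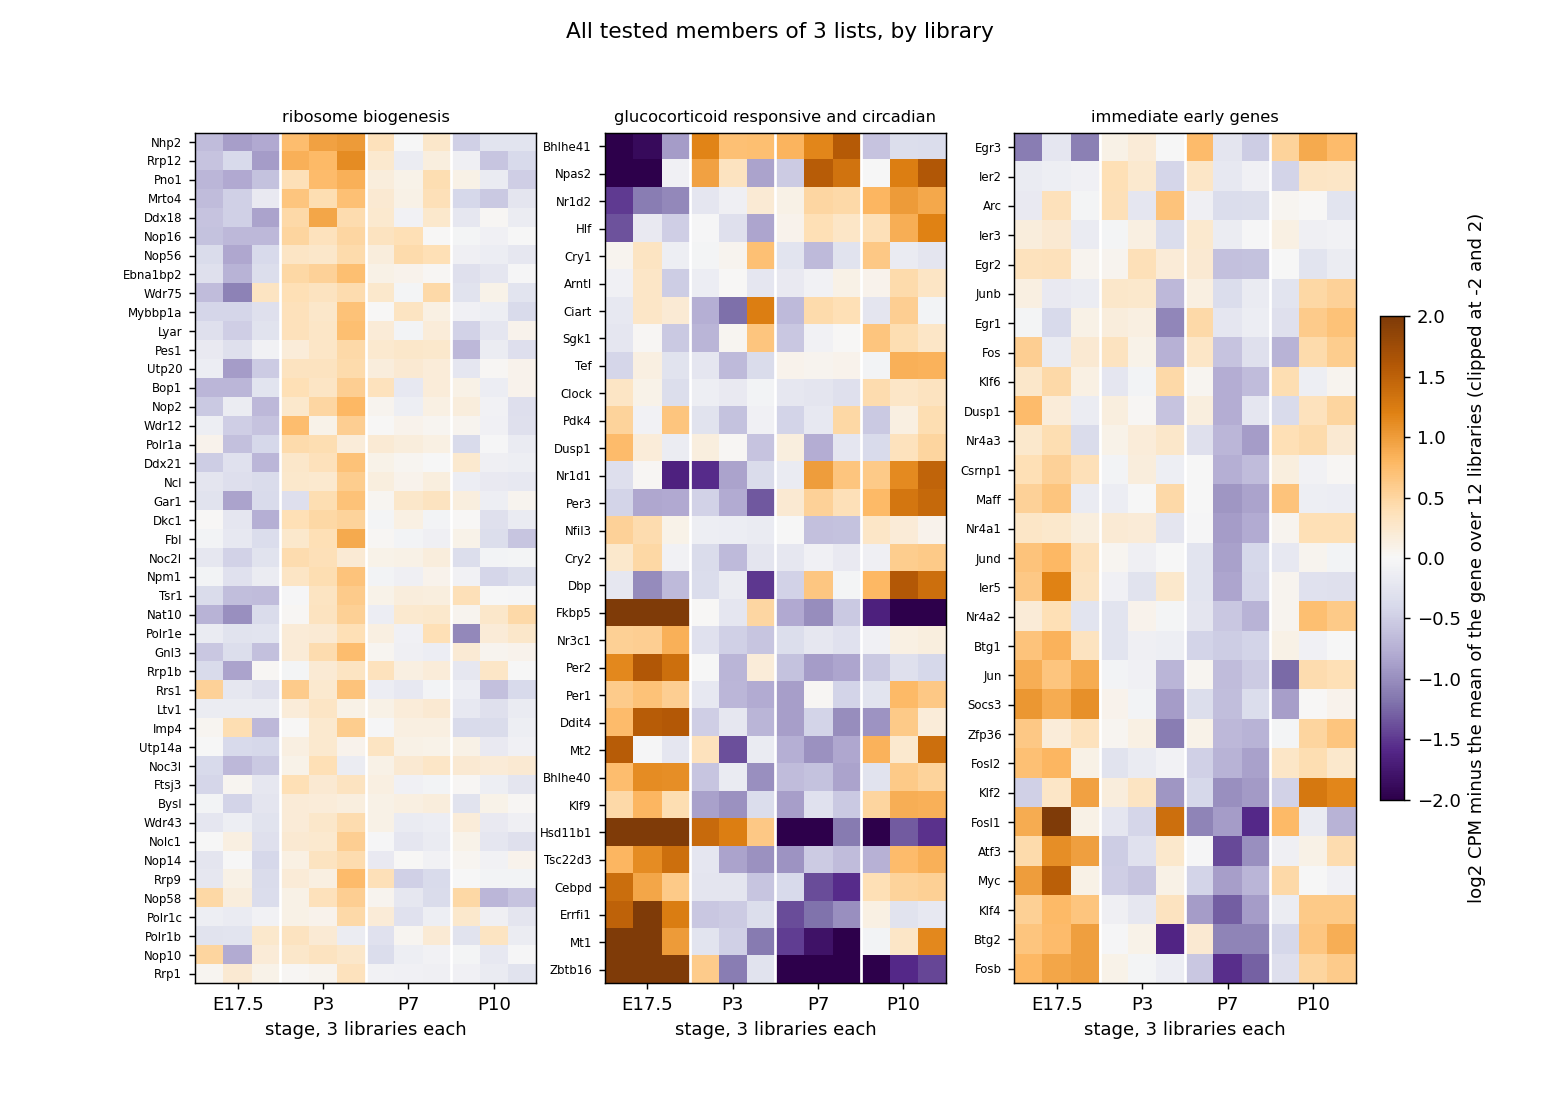
Log2 CPM of every tested member of 3 lists in each of the 12 libraries, with the mean of the gene over the libraries removed; orange is above and purple below that mean, and genes are sorted by their difference of P3 and P7 from E17.5 and P10. The stage mean is highest at P3 for 41 of 45 ribosome biogenesis members, and highest at E17.5 for 16 and at P10 for 13 of 31 hormone and clock members. Of 29 immediate early genes, 15 are lowest in P7 replicate 2, 7 in P3 replicate 3 and 4 in P7 replicate 3.

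Lysosome and autophagy genes were lower in 20 of 40 members, higher in 1 and dips in 3, with a median log2 fold change of -0.35. Over all tested genes 12.6% were lower, 13.3% higher and 1.26% dips. Ctsl, the protease cathepsin L, had 81.8, 82.1 and 79.2 CPM at P3 and 83.3, 94.5 and 98.7 at P7, against 143, 186 and 130 at E17.5 and 132, 146 and 151 at P10. All 6 P3 and P7 libraries were below the rest, the log2 fold change was -0.77 ± 0.09 (adjusted p = 0.000306), and the dip held with each library left out. Ulk1, the kinase that starts autophagy, ranged over 22 to 33.4 CPM at P3 and P7, against 39 to 59.8 at E17.5 and P10 (-0.76 ± 0.11, adjusted p = 0.001), and Ctsf, cathepsin F, over 8.65 to 14.8 CPM at P3 and P7, against 17.3 to 33.2 at E17.5 and P10 (-0.88 ± 0.13, adjusted p = 0.000876). The both-stage calls of Ulk1 and Ctsf ended when any 1 of 6 and of 10 libraries was left out (highest adjusted p = 0.158 and 0.19). Hypoxia and glycolysis genes were lower in 15 of 37 and higher in 2, but P4ha1, a collagen prolyl hydroxylase, was the only dip (-0.65; adjusted p = 0.0125, and 0.0696 without P10 replicate 3); Bnip3 had -2.55 over E17.5 and -0.09 over P10.

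Rgs5 and Jam2, genes of pericytes and of endothelium, were dips. Rgs5, a pericyte marker that limits G protein signalling, had 14.3, 15.5 and 16.2 CPM at P3 and 27.8, 21.4 and 34.3 at P7, against 60.1, 87.1 and 70.3 at E17.5 and 47.4, 72.6 and 84.4 at P10. The groups did not overlap, the log2 fold change was -1.77 ± 0.16 (adjusted p = 9.27e-05), and the call held with each library left out. Jam2, a junctional adhesion molecule of endothelium, ranged over 2.57 to 9.41 CPM at P3 and P7, against 10.4 to 27.7 at E17.5 and P10 (-1.81 ± 0.25, adjusted p = 0.00066); it lost the both-stage call without P10 replicate 2 or P10 replicate 3 (highest adjusted p = 0.0543). In the pericyte and vascular smooth muscle list 7 of 20 members were lower, against 12.6% of all tested genes. None was higher and Rgs5 was the only dip (1.26% of all tested genes). Cspg4, another pericyte marker, had -2.65 over E17.5 and -0.08 over P10.

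All 18 endothelial markers were tested. Of these markers 4 were lower, against 12.6% of all tested genes, none was higher and none was a dip. Their summed level was 60.0 to 152 CPM at P3 and P7, against 317 to 565 CPM at E17.5 and 46.5 to 130 CPM at P10. The 7 erythroid markers summed to 12.5 to 53.7 CPM at P3 and P7, against 117 to 180 CPM at E17.5 and 27.0 to 53.9 CPM at P10. The 8 airway markers summed to 85.2 to 180 CPM at P3 and P7, against 15.0 to 25.8 CPM at E17.5 and 71.4 to 255 CPM at P10. The part of these cells in the dips was not tested. Of 21 alveolar epithelial markers 5 were higher, 1 lower and Rtkn2 was a peak, against 13.3%, 12.6% and 2.46% of all tested genes. Their sums were 157 to 305 CPM at P3 and P7, against 85.3 to 250 CPM at E17.5 and P10. Only 10 of 17 immune, 2 of 7 mesothelial, 1 of 9 Schwann and neural, and 4 of 5 platelet markers were tested, and none was called. At E17.5, P3, P7 and P10 in turn, all immune markers summed to means of 8.4, 11.5, 13.3 and 19 CPM. Mesothelial markers had 10.5, 3.38, 2.75 and 1.95 CPM, and Schwann and neural markers 5.58, 7.74, 12.7 and 19.4. Platelet markers had 5.52, 5.78, 5.4 and 5.81 CPM. No marker of any list was at 0 throughout.

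Cyp2e1 and Fmo2, enzymes that oxidise drugs and other foreign compounds, were among the deepest dips. Cyp2e1 had 0.818, 0.684 and 1.82 CPM at P3 and 1.1, 2.08 and 1.58 at P7, against 21.6, 36.5 and 30.9 at E17.5 and 4.16, 14.9 and 9.96 at P10. All P3 and P7 libraries were below the rest, with a log2 fold change of -3.67 ± 0.36 (adjusted p = 0.000133), and the call held with each library left out. Fmo2 had 50.4, 33 and 41.1 CPM at P3 and 19.2, 36.2 and 32.7 at P7, against 607, 709 and 385 at E17.5 and 54.4, 210 and 199 at P10, no overlap and a log2 fold change of -3.08 ± 0.35 (adjusted p = 0.000306), but P10 replicate 1 lay near the P3 and P7 range, and the both-stage call ended without P10 replicate 2 or P10 replicate 3 (highest adjusted p = 0.084). Ndrg2 (-1.99; adjusted p against both stages 0.0526 without P10 replicate 3) and Tcp11l2 (-1.52) were further dips without overlap, and that of Tcp11l2 held with each library left out. Zfp36l1, which destabilises AU-rich messages, and Srrm2, a splicing factor, were dips of high CPM with log2 fold changes of -0.66 and -0.53; each call ended when any 1 of 10 libraries was left out (highest adjusted p = 0.186 and 0.189).

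Contractile genes were higher in part. In that list 16 of 41 members were higher and 3 lower, with no peak, against 13.3%, 12.6% and 2.46% of all tested genes. Acta2 passed the contrast at 0.91 ± 0.20 (adjusted p = 0.0072) but not against both outer stages (adjusted p = 0.0792), and P7 replicate 2 (690 CPM) lay just below E17.5 replicate 3 (696 CPM). The contrast of Acta2 was lost with P7 alone as the middle and with a minimum fold of 1.5. Cald1 (caldesmon) ranged over 1590 to 2000 CPM at P3 and P7, against 686 to 1680 at E17.5 and P10 (0.71 ± 0.11, adjusted p = 0.00116), with 1.12 over E17.5 and 0.31 over P10. Pdlim3, an actin-associated LIM protein, had 0.88 (adjusted p = 0.0868 against both). Pdgfra was lower in the contrast (-0.58 ± 0.13, adjusted p = 0.00911) with most of the difference from E17.5 (-0.90) and -0.26 over P10, and its call too was lost under both.

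Hippo pathway genes, the subject of the series title, held no peak or dip among 37 tested. At the shares over all tested genes (2.46% peaks, 1.26% dips) a list of that length holds few or none. The Hippo kinases restrain the coactivators YAP and TAZ, which act through TEAD factors. Yap1 had 55.5, 50 and 61.5 CPM at P3 and 48.2, 46 and 50.4 at P7, against 58.3, 61.3 and 56.7 at E17.5 and 65.8, 54 and 54.3 at P10, overlapping, with a log2 fold change of -0.17 ± 0.07 (adjusted p = 0.115). Wwtr1, which encodes TAZ, had a log2 fold change of -0.12 ± 0.14 (adjusted p = 0.59), a sign that turned without P10 replicate 1 (0.02) and with P3 alone as the middle (0.04). Of 37 pathway components 6 were higher and 7 lower, against 13.3% and 12.6% of all tested genes. The kinase gene Lats1 had -0.32 and Tead2 0.44. Among 33 targets of YAP and TAZ 7 were higher, 3 lower and 1 was a dip, F3 (tissue factor), which ranged over 2.59 to 5.4 CPM at P3 and P7, against 8.97 to 15.2 at E17.5 and P10 (-1.52 ± 0.20, adjusted p = 0.000586) and lost the both-stage call without P10 replicate 3 (adjusted p = 0.0611). The targets Ctgf (now Ccn2) and Cyr61 (now Ccn1) had log2 fold changes of 0.79 ± 0.30 (adjusted p = 0.0846) and -0.16 ± 0.24 (adjusted p = 0.671).

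Fibrillar and related collagens held 1 peak, Col2a1, and 1 dip, Col14a1, among 24 tested members, with 4 higher and 6 lower. Over all tested genes 2.46% were peaks, 1.26% dips, 13.3% higher and 12.6% lower. Col14a1, which associates with the surface of collagen fibrils, averaged 18.2 CPM at P3 and 56.7 at P7, against 72.5 at E17.5 and 104 at P10, a log2 fold change of -1.43 ± 0.24 (adjusted p = 0.00196), with overlap; its dip ended when any 1 of 10 libraries was left out (highest adjusted p = 0.127). Col1a1 and Col1a2, the chains of type I collagen, moved in opposite directions by small amounts (0.30 and -0.26), and the 3 chains of type VI collagen, Col6a1, Col6a2 and Col6a3, were lower (-0.51, -0.54 and -0.41) without being dips. Collagen modification and secretion had 11 of 38 members higher and 9 lower.

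Psat1 belonged to a list of tRNA synthetases and of the amino acid response. In that list 15 of 41 members were higher, 6 lower and 3 were peaks, against 13.3%, 12.6% and 2.46% of all tested genes. The peaks were Psat1, Kars and Hars. Phgdh, the entry enzyme of serine synthesis, averaged 27.2 CPM at P3 and 18.1 at P7, against 4.49 at E17.5 and 13.5 at P10, a log2 fold change of 1.49 ± 0.30 (adjusted p = 0.00541), and Mthfd2, a mitochondrial folate enzyme, 9.67 CPM at P3 and 7.62 at P7, against 1.09 at E17.5 and 5.91 at P10, a log2 fold change of 1.74 ± 0.17 (adjusted p = 9.81e-05); neither passed against both outer stages (adjusted p = 0.443 and 0.188). Kars, the lysyl-tRNA synthetase, ranged over 36 to 52.6 CPM at P3 and P7, against 23.9 to 32.9 at E17.5 and P10, a log2 fold change of 0.60 ± 0.06 (adjusted p = 0.000135), and held with each library left out. The stress factors Atf3, Ddit3 and Atf5 were lower (-0.93, -0.42 and -0.47).

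Of 91 tested mesenchymal transcription factors 13 (14.3%) were higher, 27 (29.7%) lower, 1 was a peak and 3 were dips. The share higher was near the 13.3% of all tested genes, of which 12.6% were lower, 2.46% peaks and 1.26% dips. Hoxb2 was the peak (0.56), a call that ended when any 1 of 10 libraries was left out (highest adjusted p = 0.128), and Hoxb5, Hoxb6 and Hoxb7, its neighbours in the Hox cluster that patterns the body axis, were higher as well (0.67, 0.38 and 0.82), while Hoxb4 was lower (-0.31). The dips were Klf9, Klf4 and Cebpd, which also belong to the lists above. Klf15, a hormone-induced relative of Klf9, had a log2 fold change of -1.92, and Twist1 and Runx2, regulators of mesenchymal and bone cells, had 1.65 and 0.99; none of these 3 was a peak or dip.

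Peaks were 2.46% and dips 1.26% of all tested genes, shares at which lists as short as the signalling lists hold few or none. Genes higher and lower in the contrast were 13.3% and 12.6%. TGF-beta genes had 4 members higher and 12 lower of 36 and a single dip, Pmepa1, a feedback inhibitor of the pathway, which ranged over 46.1 to 57.4 CPM at P3 and P7, against 73.5 to 112 at E17.5 and P10 (-0.79 ± 0.11, adjusted p = 0.000618; highest adjusted p against both stages 0.0617, without P10 replicate 2). Tgfb2 was a step, with 2.46 over E17.5 and -0.22 over P10. Hhip, a Hedgehog antagonist and a marker of secondary crest myofibroblasts, had 98.3, 93 and 116 CPM at P3 and 105, 104 and 102 at P7, against 483, 751 and 593 at E17.5 and 99.3, 109 and 130 at P10, and so stepped down between E17.5 and P3 (-0.13 over P10). In the crest myofibroblast list 8 of 26 members were higher, 7 lower, and Cdh4, a cadherin, was the only dip (-1.37; adjusted p = 0.0106, and up to 0.064 without P10 replicate 2 or P10 replicate 3). The netrin gene Ntn1 had 36.9, 35.9 and 58.4 CPM at P3 and 45.7, 40.6 and 55.6 at P7, against 0.951, 1.75 and 1.15 at E17.5 and 57.1, 38.8 and 39.1 at P10, a step up (5.18 over E17.5 and 0.02 over P10), and its receptor Unc5b did the same (2.88 and -0.05). Pcdh17, a protocadherin, ranged over 1.77 to 3.16 CPM at P3 and P7, against 5.22 to 14.7 at E17.5 and P10 (-1.86 ± 0.15, adjusted p = 5.18e-05) and its dip held with each library left out. Of 57 semaphorin, netrin, ephrin and slit genes 10 were higher and 9 lower; Sema3a was the peak, and Ntn4 and Epha4, an ephrin receptor (-1.04), were the dips. Wnt genes had 9 members higher, 7 lower and the dip Lrp6 (-0.38) of 47, antioxidant genes 9 higher, 5 lower, the peak Prdx4 (0.71) and the dip Mt1 of 38, and chaperones of the endoplasmic reticulum 9 higher, 7 lower and the dip Dnajb9 (-0.55) of 35. The calls of Epha4, Lrp6, Prdx4 and Dnajb9 against both stages ended when any 1 of 5, 11, 6 and 11 libraries was left out (highest adjusted p = 0.114, 0.137, 0.0749 and 0.197). The Hedgehog, BMP, Notch, retinoic acid, integrin, leucine-rich proteoglycan and interferon lists held no peak or dip.

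Peaks were also read as a share of each gene's variation. The sum of squares between the 4 stage means splits exactly into this contrast, the difference of P10 from E17.5 and the difference of P7 from P3. The contrast held a median of 92.3% of it for cell cycle genes, 95.3% in mitosis and 95.2% in DNA replication, against 36.8% over all tested genes. It held 69.6% in mitochondrial import and translation, 66.5% in oxidative phosphorylation, 65.4% in ribosome biogenesis, 59.8% in lysosome and autophagy and 57.3% in the hormone and clock list. In imprinted and fetal growth genes it held 4.45%, and in alveolar fibroblast and lipofibroblast markers 7.79%.

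Between P7 and P3 themselves 1 gene (0.00594%) passed, Igf2, an imprinted fetal growth factor that was no peak or dip. Igf2 averaged 5.84 CPM at P7, against 36.1 at P3, a log2 fold change of -2.63 (adjusted p = 0.0233). Among the peaks outside the lists none passed between P7 and P3. Nme1 averaged 26.2 ± 4.52 CPM at P7, against 47.9 ± 11.9 at P3 (SD, n = 3 each), and Dctpp1, Nhp2, Naaa, Ppp1r14b and Anapc15 were the other 5 with the lowest log2 difference of P7 from P3. Smyd5 averaged 12.8 ± 2.58 CPM at P7, against 9.3 ± 1.45 at P3, and Tubgcp2, Slfn9, Hoxb2, Exosc8 and Phlda3 were the other 5 with the highest.

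Transcript length differed between the groups of genes. The median longest transcript in GENCODE release M21 was 2382 nt for peaks outside the cell cycle lists and 3390 nt for cell cycle peaks, against 4884 nt for dips and 2902 nt for all tested genes with a length (93.8%). Over all genes the median log2 fold change was 0.02 in the 3946 genes with the shortest transcripts and -0.12 in the 3946 with the longest. The part of length in these calls was not tested.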

How the data were processed

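The authors deposited 1 table of estimated counts for 28004 genes in 12 libraries, which the values show to be whole numbers already scaled and rounded. Per the labels' protocols, libraries came from a low-input kit for stranded total RNA, although another label gives polyA RNA as the molecule. GRCm38 is the build named in the submitters' processing notes; aligner and quantifier: not given in the sources used here. Because short genes carry scaled values that are not reads, limits for counts of 0 were left out. Summed counts per library were 13328623 to 18740591, and this depth limits low genes most.

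Columns were assigned to stages by their labels. Genes passing the edgeR filter by stage (16827) were fitted in 1 model with 4 stages (edgeR 4.0.16, limma 3.58.1, R 4.3.3; TMM, robust quasi-likelihood, Benjamini-Hochberg at 0.05). The contrast was the mean of P3 and P7 minus the mean of E17.5 and P10. The both-stage test took the larger p of P3 and P7 minus E17.5 and minus P10, set to 1 where signs differed. CPM used TMM sizes; variance shares used log2 CPM with a prior count of 2. The fits were tested on simulated data.

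Named genes were the sort and Hippo genes, the 14 highest and 14 lowest non-overlapping peaks and dips of at least 10 CPM outside the 7 cell cycle lists (predicted models left out), the 8 of highest CPM in each direction, the 6 highest cell cycle members, up to 4 per list by p, and the 6 peaks at each end of P7 minus P3. Others were added from the lists or after their values were seen, and a few named by the rule are not reported here. The members, the 57 lists and the tests were chosen with earlier results of these data known. Positions are from GENCODE M21, which matched 25847 genes (92.3%), and promoters from RefSeq GRCm38.p6. The alternatives tried were RLE and upper quartile scaling, TMM without 7SL and 7SK, no and stricter filters, DESeq2 1.42.0, limma-voom, a non-robust fit, a minimum fold of 1.5, a replicate block, single middle stages and each library left out.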

Additional observations from a re-analysis of the deposited data

How the results depend on the processing

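The counts of genes higher (2242) and lower (2112) stayed within 1.5 times under the RLE and upper quartile scalings, TMM without the 7SL and 7SK genes, no filter, a stricter filter, DESeq2, limma-voom, a fit that was not robust and a replicate block. A minimum fold of 1.5 left 390 higher and 166 lower, so that 70.1% of calls were higher, against 51.5%; 2 groups of 6 with no stage term left 1321 and 1219, and P7 alone as the middle left 1407 and 1125. Leaving out 1 library gave 1658 to 2443 higher and 1412 to 1905 lower. The 414 peaks and 212 dips moved more. DESeq2 called 856 and 541, P7 alone as the middle 122 and 39, and P3 alone 473 and 231. Outside the cell cycle lists lay 34 of the peaks with P7 alone and 296 of those with P3 alone. No filter left 133 dips, and leaving out 1 library gave 96 to 473 peaks and 37 to 205 dips. A stricter definition chosen after seeing the data, in which P3 and P7 each had to differ from each outer stage, left 88 peaks and 16 dips, Thsd4, Eln, Mgp and Klf9 among them. In each case the cause was not tested. The main fit tested 16827 genes and the fit with no filter 28004. The fits with 1 library left out held fewer libraries and tested 17463 to 17776 genes.

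The replicate numbers did not pair the samples, since 3 of 18 same-numbered pairs correlated above 0.1 (from -0.195 to 0.136). With the replicate block 2008 genes were higher and 1753 lower, with 319 peaks and 123 dips.

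Among the named genes the direction turned for Tnxb (-0.67) and Sod3 (-0.73) with 2 groups of 6, for Wwtr1 (0.04), Krt18 (0.07) and Ednrb (0.28) with P3 alone, for Rpl35 (-0.01) and Wnt5a (0.11) with P7 alone, and for Wwtr1 with 1 library left out (-0.21 to 0.02, highest without P10 replicate 1). The scalings moved the median log2 fold change of all genes by at most 0.01. Depth limits genes of a few CPM most.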
